A study of Homo sapiens with 3 samples.

Results

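The ATP-binding cassette (ABC) family was examined in A2780 cells, an ovarian cancer line from an undifferentiated tumour, that express exogenous miR-181a. By its title the study sought target genes of this microRNA. Members were the rows whose gene symbol is ABC, a letter from A to G and a number, which gave 45 genes in 77 RefSeq transcript rows, of 18877 genes in 29156 rows in all. By role, 12 genes belong to drug and organic anion efflux, 18 to lipid, sterol and bile salt transport and 9 to organelle membranes. Another 4 are not transporters and 2 regulate potassium channels. RNA was sequenced from 3 libraries. Pool 1 and pool 2 stably expressed exogenous miR-181a (1 library each, named p181a #1 and p181a #2 by the submitters), and the control cells stably carried the empty pBABE vector (1 library). All 3 lines were grown in the same medium with serum, and no drug is named. The submitters call the miR-181a lines polyclonal pools in one field and clones in another, and nothing says that they came from separate infections. All p-values below thus rest on how far these 2 libraries differ from each other, and that difference may be technical.

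ABC proteins share a nucleotide-binding domain that hydrolyses ATP. Most members couple that cycle to membrane-spanning domains and move drugs, conjugates, sterols, phospholipids, peptides or metal-linked compounds across a membrane. ABCE1 and the ABCF proteins lack membrane domains and act on the ribosome. In ovarian cancer the family is known chiefly for the efflux pumps ABCB1, ABCC1 and ABCG2, which expel chemotherapy drugs.

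miR-181a-5p pairs with targets through its seed, bases 2 to 8 from the 5′ end. The mature sequence from RefSeq (GRCh38.p14) is shown with the seed in capitals, followed by each 7-base match to the seed found in an annotated 3′ untranslated region of the family. Those sites are given on the transcript strand with the match in capitals and 8 bases on either side, because few members hold one.
hsa-miR-181a-5p: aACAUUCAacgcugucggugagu
ABCA5 (chr17:67241905-67241927, minus strand, GRCh37): tacatttgTGAATGTgtaattgg
ABCC3 (chr17:48769485-48769507, plus strand, GRCh37): gccaaagcTGAATGTgtgagcac
ABCA13 (chr7:48687033-48687055, plus strand, GRCh37): gtgaaacaTGAATGTgtttaaac
ABCB11 (chr2:169778751-169778773, minus strand, GRCh37): agggggatTGAATGTaaagctgt

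The motif TGAATGT was searched on the transcript strand alone, in the 3′ untranslated region of 1 canonical transcript per gene. It was found in 4 of 45 members (8.89%) and in 20.7% of the 12293 tested genes with such a region, at a median length of 1226 bases in the family and 1233 bases in the tested genes. ABCB11 had the longer 8-base form with a following A, which 6.71% of tested genes hold. ABCC3, ABCA13 and ABCB11 were listed at 0 in both pools, so ABCA5 was the only member with a match among the 23 above 0 in both (4.35%). Of all tested genes above 0 in both pools, 2284 held a match and 8367 did not. A match is a description of sequence, and no match says only that these letters are not in the region searched.

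The values are coverage per transcript, which the authors took as the median read density over 50 bp windows. Coverage is a depth per position, so levels can be compared between genes of different length. Without read counts, sequencing depth is unknown. Over all rows, 32.3% in pool 1, 32.2% in pool 2 and 12.8% in the vector library were at 0, and coverage summed to 907092 in pool 1, 719263 in pool 2 and 798228 in the vector library. Among rows at 0 in both pools, the vector library was above 0 in 26 of 33 rows of the family (78.8%) and in 62.9% of 8822 rows of the whole table. The vector library therefore held values where both pools had none across the table, and this bears on every gene given below as lower. Its part in those results was not tested. The cell type was checked against 16 ovarian carcinoma markers. Of the 8 tested, 1 rose and 4 fell by limma, 3 of the 4 at 0 in both pools, against 1.00% that rose and 21.7% that fell of all tested genes. The marker that rose was CDH2, listed as mesenchymal, at 51.5 and 39.7 in the pools and 7.02 in the vector library. PAX8, WT1, MUC16, EPCAM, KRT7, KRT19, ESR1 and CDH1 were at 0 in both pools, and EPCAM was at 66.3, ESR1 at 104 and KRT19 at 17.4 in the vector library. KRT8 had 13.4 and 10.5 in the pools and KRT18 had 2.38 and 4.91, each lower than in the vector library. CLDN4 stood the other way, with 1.76 and 1.21 in the pools and 0.589 in the vector library. CLDN3, FOLR1 and MSLN had low pool values and were lower in both pools. VIM, a mesenchymal filament gene, had a coverage of 2328 in pool 1 and 2007 in pool 2, against 1174 in the vector library. Of 12 fibroblast, immune and endothelial markers, PTPRC, CD3E, VWF and KDR were at 0 in both pools and at 5.79, 17.4, 36.6 and 167 in the vector library. The list summed to 789 and 721 in the pools and 596 in the vector library, with DCN and LUM the highest in the pools and KDR the highest in the vector library, and the part of either list in the results was not tested.

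In the pools the family divided into members with coverage and members with none. The 4 members that are not transporters and the 9 organelle members were above 0 in both pools. Of the 12 efflux members 5 were above 0 in both, as were 5 of the 18 lipid members and neither of the 2 channel regulators. Each gene was counted by its transcript of highest mean. In all, 21 members were at 0 in both pools and 4 of those, ABCB1, ABCC12, ABCA6 and ABCG8, were at 0 in every library. By transcript row, 42.9% of the 77 family rows and 30.6% of all 28848 rows used were at 0 in both pools. A window median can be 0 even though part of a transcript is covered, so being listed at 0 does not exclude some reads. In bulk RNA a lower value from fewer cells that express a gene and one from less RNA per cell cannot be told apart.

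**Figure D1:**
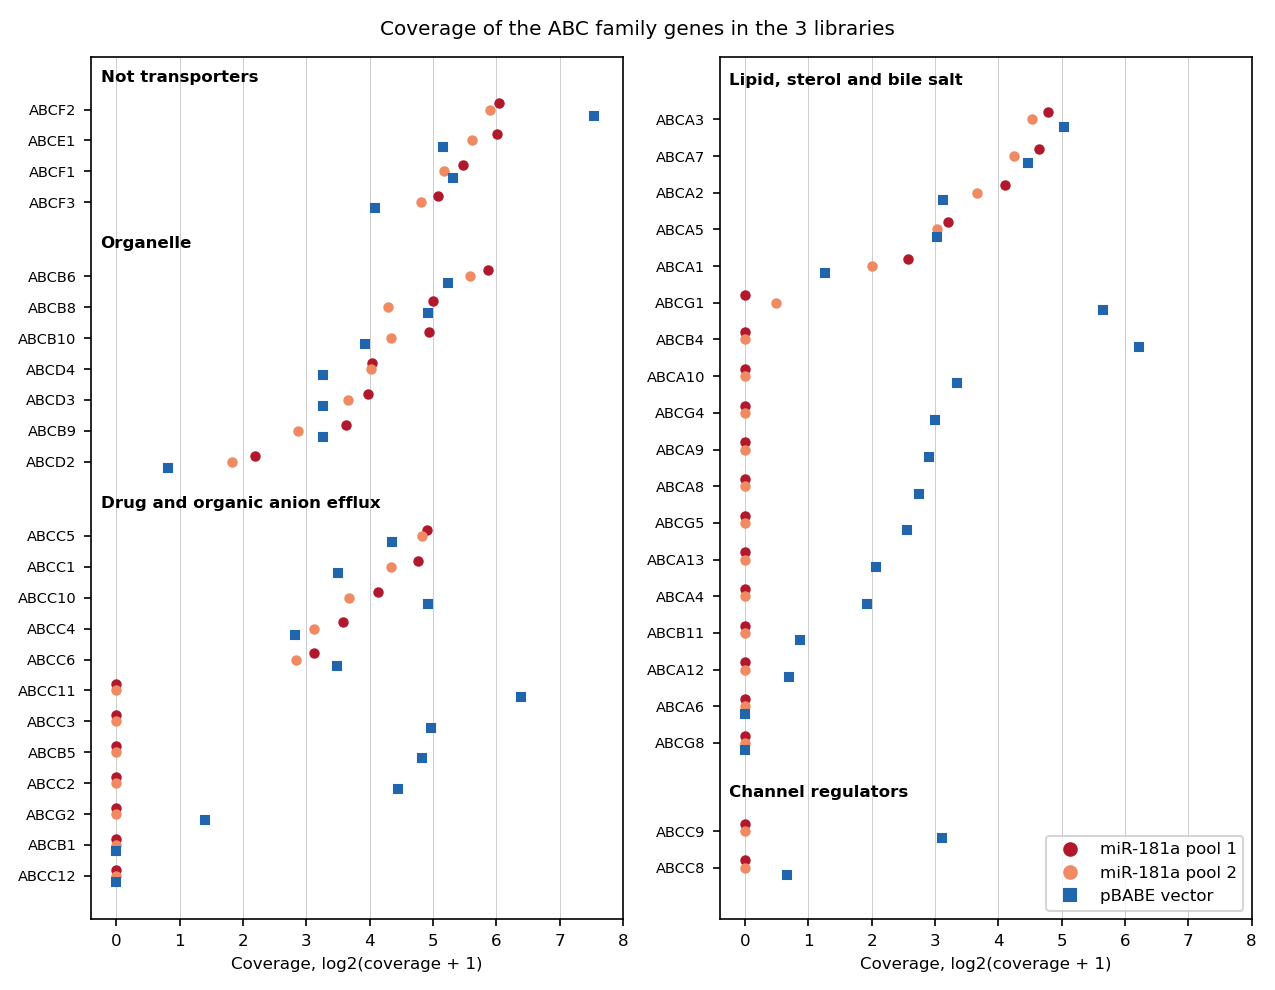
Coverage, as log2(coverage + 1), of the transcript used for 43 of the 45 genes in pool 1, pool 2 and the vector library, grouped by role and ordered by the mean of the pools. The 21 members at 0 in both pools lie at the left edge, and 17 of them have a vector value to the right of it, up to 82.8 for ABCC11.

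Values were compared on the log2(coverage + 1) scale, where changes of weakly covered genes come out too small, and 30 of the 45 members passed the filter on low values. Tested with limma and Benjamini-Hochberg adjustment over all 12552 tested genes, none of the 30 rose and 9 fell, against 1.00% and 21.7% of all tested genes. None rose at an unadjusted p under 0.05 either, and no other tool was run. Of the 9, 7 were at 0 in both pools, so that the vector value alone carried them past the filter and fixed their fall, as it did for all 1535 tested genes of that kind. ABCG1, at 0 in pool 1 and 0.403 in pool 2, also passed the filter only through its vector value. By the size rule, which asks for 1 log2 unit or more in the same direction in both pools, none of the 30 was higher and 9 were lower, against 2.53% and 27.3% of tested genes. The same 7 members at 0 in both pools are among the 9 lower by size. Among members above 0 in both pools, 22 were tested, none rose and 1 fell, ABCF2, against 1.16% and 9.35% of the 10818 such genes, and by the size rule none was higher and 1 lower, against 2.94% and 15.7%.

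Of these 22 members, 13 were higher in both pools and 4 were lower in both, against 51.7% and 32.5% of such genes. Their median log2 fold was 0.43, and 0.22 over all such genes. Genes with a mean coverage above 50 stood 0.55 higher in pool 1 and 0.21 higher in pool 2 than in the vector library at their median. After that shift was taken out, 11 members were higher and 10 lower in both pools, against 33.3% and 53.4% of such genes, and the medians were 0.05 in the family and -0.16 over such genes. Of all 30 tested members, 11 were then higher and 18 lower in both pools, against 28.7% and 59.9% of all tested genes. The 11 were ABCE1, ABCF3, ABCB6, ABCB10, ABCD3, ABCD4, ABCC1, ABCC4, ABCC5, ABCA1 and ABCA2, and their mean folds were above 0 under each scaling tried. With library medians set equal 13 members rose by limma, 13 after quantile normalization and 2 after the shift, so whether a member passed upward rested on the scaling. Each scaling also takes out much of the common difference between the pools, on which the p-values rest. An adjusted p under a scaling can thus be smaller even where the fold shrinks, and is not firmer evidence. After the shift 13 members fell, the 9 and also ABCA3, ABCB8, ABCC6 and ABCC10. Limma calls of all tested genes were not counted under these scalings, so these counts have no share to be set against.

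**Figure D2:**
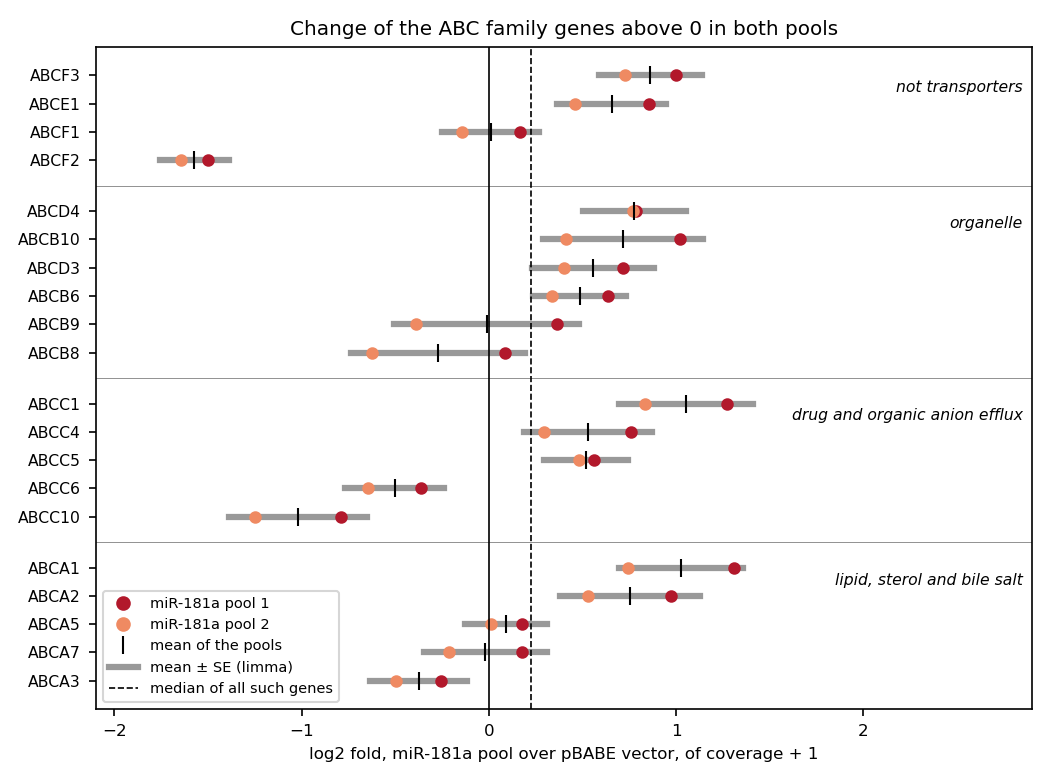
Log2 fold of coverage + 1 in each miR-181a pool over the vector library for 20 of the 22 tested members above 0 in both pools, with the mean of the pools and its standard error from limma. The dashed line is the median of all 10818 such genes, 0.22, and ABCF2 at -1.57 lies farthest from it.

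ABCF2 and ABCE1, of the soluble members, had the highest pool coverage of the family. ABCE1, which splits ribosomes for recycling (chromosome 4, 146019440 to 146050676 on GRCh37), had a coverage of 63.5 in pool 1 and 48.1 in pool 2, against 34.7 in the vector library. Both pools lay above the vector, and the log2 fold of 0.66 (SE 0.29) did not pass limma (adjusted p = 0.27). Its 2 transcripts had the same pool values and vector values of 34.7 and 32.9. ABCF3 (chromosome 3, 183903883 to 183911800), whose yeast counterpart Gcn20 acts in amino acid sensing, had 32.8 and 26.9 in the pools and 15.9 in the vector library. Its log2 fold was 0.86 (SE 0.27, limma adjusted p = 0.19), and 0.48 after the shift, where it passed (limma adjusted p = 0.040, with a range of 2.4e-09 to 0.34 over all alternatives). ABCF1, which binds the initiation factor eIF2, had 43.6 and 35.1 in the pools and 38.8 in the vector library, so the vector lay between the pools.

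ABCF2 was the sole member above 0 in both pools that fell, and the fall rested on 1 of its transcripts. In the transcript used (NM_007189, chromosome 7, 150908570 to 150924291 on GRCh37), coverage was 64.6 in pool 1 and 58.4 in pool 2, against 185 in the vector library. The log2 fold was -1.57 (SE 0.19, limma adjusted p = 0.045), lower in both pools. The other transcript listed for ABCF2 (NM_005692) had nearly the same pool coverage, 61.9 and 57.2, but 33.6 in the vector library, which made it higher in both pools, with log2 folds of 0.86 and 0.75. RefSeq now lists NM_005692 as the readthrough gene ABCF2-H2BK1. With the mean of the transcripts the log2 fold of ABCF2 was -0.84 and did not pass (limma adjusted p = 0.13), and over all alternatives its adjusted p ranged from 1.9e-25 to 0.13.

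Organelle members were all above 0 in the pools, and none of the 8 tested passed in either direction. ABCB6, a porphyrin transporter (chromosome 2, 220074494 to 220083716), led them with 57.5 in pool 1 and 46.6 in pool 2, against 36.7 in the vector library. ABCB10, of the mitochondrial inner membrane, had 29.7 and 19.1 in the pools and 14.1 in the vector library. ABCB8, another mitochondrial member, had 31.1 and 18.6 in the pools and 29.3 in the vector library, with the vector between the pools. Its log2 fold was -0.27, turned to 0.14 with library medians set equal and passed downward at -0.65 after the shift (limma adjusted p = 0.0036, with a range of 0.0036 to 0.93 over all alternatives). For ABCB6 and ABCB10 both pools stood above the vector, with log2 folds of 0.49 (SE 0.25) and 0.72 (SE 0.43). ABCB9, a lysosomal peptide transporter, had 11.3 and 6.29 in the pools and 8.56 in the vector library in the transcript used. Its other transcripts had vector values of 5.25 and 3.97 at similar pool values, and stood higher in both pools.

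Of the other organelle members, ABCD2 fell just short of the filter. ABCD2, an importer of very long-chain fatty acids (chromosome 12, 39943835 to 40013605), had 3.54 in pool 1 and 2.55 in pool 2, against 0.766 in the vector library. By the transcript used for each gene, it was the sole member at least 1 log2 unit higher in both pools, at 1.36 and 1.01. Its mean lay under the limit of 2.44 that the filter set, so it has no test. ABCD3, an abundant peroxisomal membrane protein, had 14.7 and 11.6 in the pools and 8.57 in the vector library. ABCD4, which acts in lysosomal cobalamin release, had 15.4 and 15.3 in the pools and 8.55 in the vector library. The pools of ABCD4 were nearly equal and both above the vector, and the log2 fold of 0.78 (SE 0.27) did not pass limma (adjusted p = 0.22). It passed with medians set equal, after quantile normalization and with no variance trend (limma adjusted p from 5.1e-07 to 0.041), and was 0.40 and did not pass after the shift (limma adjusted p = 0.14).

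Of the best known drug pumps, ABCC1 had coverage in the pools while ABCB1 and ABCG2 had none. ABCB1, which encodes P-glycoprotein, was at 0 in all 3 libraries, and ABCG2, the breast cancer resistance protein, was at 0 in both pools and at 1.65 in the vector library. ABCC1, which exports glutathione conjugates and several drugs (chromosome 16, 16042995 to 16237114 on GRCh37), had 26.3 in pool 1 and 19.2 in pool 2, against 10.3 in the vector library. Both pools lay above the vector, with a log2 fold of 1.05 (SE 0.36) that did not pass limma (adjusted p = 0.21). The 5 transcripts of ABCC1 gave nearly the same answer, with log2 folds of 1.27 to 1.36 in pool 1 and 0.83 to 0.95 in pool 2 and vector values of 9.32 to 10.3. After the shift the fold of ABCC1 was smaller, at 0.67, yet passed (limma adjusted p = 0.0045). The shift also brings the pools of ABCC1 closer together, and the part of that in the smaller p was not tested. Over all alternatives the limma adjusted p of ABCC1 ranged from 5.9e-11 to 0.22.

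ABCC5, a transporter of cyclic nucleotides and nucleotide analogues, had the highest pool coverage of the pumps, 28.9 in pool 1 and 27.3 in pool 2, against 19.3 in the vector library. Its log2 fold was 0.52 (SE 0.22, limma adjusted p = 0.27), and its second transcript had 23.3 and 18.0 in the pools and 8.41 in the vector library. Both transcripts were higher in both pools, and the second met the size rule upward, with log2 folds of 1.37 and 1.01. ABCC4, which exports cyclic nucleotides and prostaglandins, had 10.9 and 7.65 in the pools and 6.04 in the vector library. ABCC10, known for resistance to taxanes (chromosome 6, 43395104 to 43418165), stood the other way, with 16.6 and 11.8 in the pools and 29.4 in the vector library. Its single transcript was lower in both pools, with a log2 fold of -1.02 (SE 0.37) that did not pass (limma adjusted p = 0.22), and was lower under each scaling tried. After the shift its fold was -1.40 and passed, and over all alternatives its limma adjusted p ranged from 3.2e-10 to 0.23. ABCC6, mutated in pseudoxanthoma elasticum, had 7.68 and 6.12 in the pools and 10.2 in the vector library in the transcript used. Its other transcript had 3.585 and 2.75 in the pools and 3.27 in the vector library, with no common direction. In the transcript used the log2 fold of -0.50 turned to 0.33 after quantile normalization. It was -0.88 after the shift, where it passed downward (limma adjusted p = 0.0016, with a range of 0.0016 to 0.76 over all alternatives). ABCC1 and ABCC6 are neighbours in opposite orientation on chromosome 16, with 6307 bp between them.

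Of the 7 efflux members at 0 in both pools, 4 passed the test through the vector value alone. They were ABCC11 at 82.8 in the vector library, ABCC3 at 30.2, ABCB5 at 27.4 and ABCC2, a pump of the bile canaliculus, at 20.7. The values of ABCC11 (chromosome 16, 48199684 to 48281479), the gene of earwax type, differed between its transcripts, at 82.8, 78.4 and 0. ABCC3 (chromosome 17, 48712138 to 48769614) had 30.2 in one transcript and 0 in the other. The 4 transcripts of ABCB5, a pump first described in melanocytes, had vector values from 0.794 to 27.4.

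By the transcript used, lipid transporters with coverage in both pools were all of the ABCA subfamily. ABCA3, which loads surfactant lipid into lamellar bodies, had the highest pool level among them, 26.4 in pool 1 and 22.2 in pool 2, against 31.7 in the vector library. ABCA7 had 23.9 and 18.0 in the pools and 21.1 in the vector library. ABCA2, which is abundant in myelinating cells, had 16.3 and 11.7 in the pools and 7.78 in the vector library. Both pools were above the vector for ABCA2 and below it for ABCA3, with log2 folds of 0.75 (SE 0.37) and -0.38 (SE 0.26), while ABCA7 had no common direction. The fold of ABCA3 turned to 0.04 with library medians set equal and was -0.76 after the shift, where it passed downward (limma adjusted p = 5.7e-04, with a range of 5.7e-04 to 0.86 over all alternatives).

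ABCA1, which hands cholesterol and phospholipid to apolipoprotein A-I (chromosome 9, 107543287 to 107690436 on GRCh37), had a low coverage of 4.97 in pool 1 and 3.02 in pool 2, against 1.40 in the vector library. Its log2 fold was 1.03 (SE 0.33, limma adjusted p = 0.20), higher in both pools. In a fit limited to genes above 0 in both pools ABCA1 passed (limma adjusted p = 0.011), and over all alternatives its adjusted p ranged from 4.1e-04 to 0.28. ABCA5, the expressed member with a seed match, had 8.21 and 7.23 in the pools and 7.16 in the vector library. The pools of ABCA5 thus lay just above the vector. The log2 fold of ABCA5 was 0.09 with an SE of 0.22 (limma adjusted p = 0.79) and turned to -0.29 after the shift. Over all tested genes above 0 in both pools, the median log2 fold was 0.18 in the 2284 with the 7-base match and 0.23 in the 8367 without.

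The lipid members that fell were ABCB4, ABCA10 and ABCG1. ABCB4, the phosphatidylcholine floppase of bile (chromosome 7, 87031012 to 87109751), was at 0 in both pools, with vector values of 74.0, 2.61 and 0.591 in its 3 transcripts. ABCA10 was at 0 in both pools and 9.14 in the vector library. ABCG1, which moves cholesterol to high-density lipoprotein (chromosome 21, 43619799 to 43717354), was at 0 in pool 1 and 0.403 in pool 2, against 49.5 in the vector library, in the transcript used (log2 fold -5.41, SE 0.29, limma adjusted p = 0.010). Those pool values lay far under the limit of 2.44 that the filter set. The vector value alone thus carried ABCG1 past the filter and fixed its direction. Its other 5 transcripts had vector values from 0 to 0.489 and pool values from 0 to 0.413, so the fall of ABCG1 rested on 1 transcript of 6. The sterol pair ABCG5 and ABCG8, which overlap in opposite orientation on chromosome 2, was at 0 in both pools, with 4.88 for ABCG5 and 0 for ABCG8 in the vector library. The kit is not described as keeping strand, so reads in their overlap could not be assigned. On chromosome 17, ABCA8, ABCA9, ABCA6 and ABCA10 lie next to ABCA5 on the same strand and were at 0 in both pools, while ABCA5 was not. ABCA10 and ABCA5 overlap by 536 bp. ABCC9, a channel regulator, also fell, at 0 in both pools and at 7.60, 1.15 and 0 in the vector library in its 3 transcripts, and ABCC8 was at 0 in both pools and 0.592 in the vector library. KCNJ8 and KCNJ11, the pores that ABCC8 and ABCC9 regulate, were not tested, with KCNJ8 at 0 in both pools and 3.28 in the vector library and KCNJ11 at 1.36 and 1.19 in the pools and 2.43 in the vector library. The 10 untested members at 0 in both pools but not in the vector library had vector values from 0.592 to 6.98. Of these, ABCG4 at 6.98, ABCA9 at 6.47, ABCA8 at 5.71, ABCG5, ABCA13 at 3.21, ABCA4 at 2.79 and ABCG2 met the size rule downward through the vector value alone.

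The transcripts of a gene were also set side by side. The one used has the highest mean, so in a gene at 0 in both pools it is the highest in the vector library by choice, and the spread below is a description, read beside the same count over all genes. Of the 9 members that fell, 7 had several transcripts, and in none of the 7 did every transcript meet the size rule downward. Over all genes that fell and had several transcripts, every transcript met it in 399 of 1094 (36.5%). In 7 members with coverage in at least 1 pool the transcripts lay within 0.2 log2 units of each other in each pool, and in 2 of them, ABCF2 and ABCG1, the vector values lay at least 1 log2 unit apart. Over all genes alike in the pools by that measure, 23.8% of 2657 had vector values at least 1 log2 unit apart. The members higher in both pools showed no such split in ABCC1, ABCE1, ABCA2 and ABCC4, whose vector values lay within 0.36 log2 units, while those of ABCC5 and ABCD3 spanned 1.11 and 1.09.

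**Figure D3:**
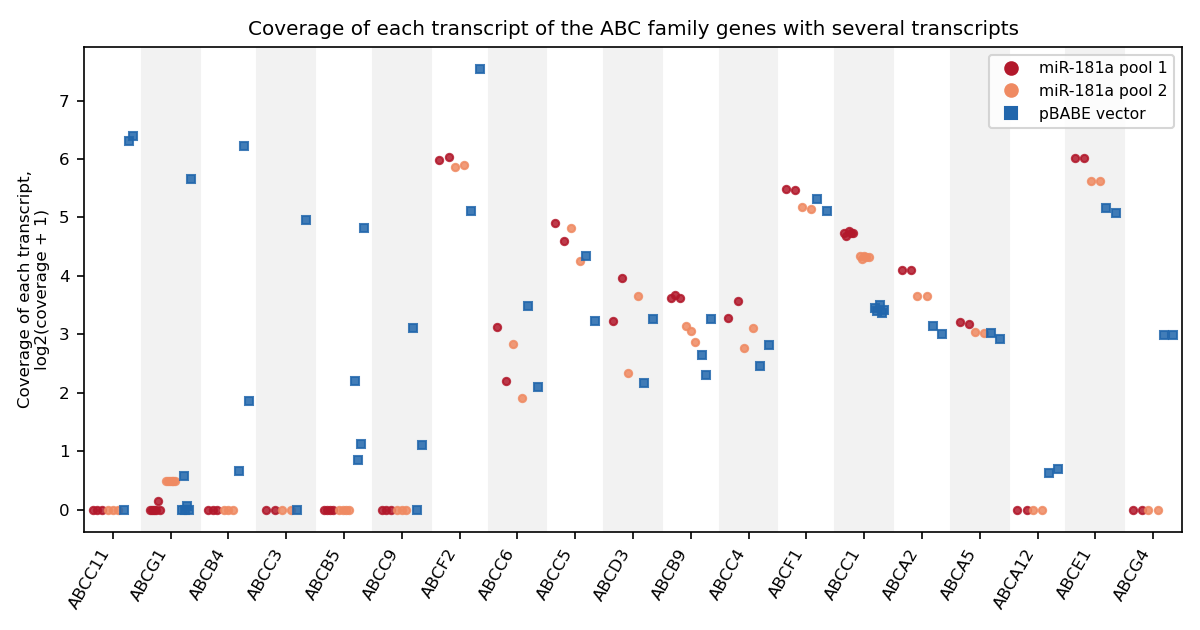
Coverage, as log2(coverage + 1), of every transcript of the 19 members with several transcripts in pool 1, pool 2 and the vector library, ordered by the spread of the vector values. From ABCC11 to ABCF2 on the left the pool values of a gene coincide or nearly so while its vector values spread over 2.43 to 6.39 log2 units.

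The pools differed from each other in a common direction. Of the 22 tested members above 0 in both, 21 were lower in pool 2, as were 88.8% of all such genes, with a median difference of -0.35 in the family and -0.32 over all such genes. GENCODE annotation names pseudogenes of ABCA3, ABCB10, ABCC6 and ABCF2, whose reads could have been split with these genes, so their levels are uncertain to that extent.

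Genes of the pathways around the family were counted from lists chosen for their function. The 3 ABC proteins with other symbols were TAP1, TAP2 and CFTR. TAP1, a subunit of the antigen peptide transporter, had 14.7 and 8.27 in the pools and 19.4 in the vector library, and its partner TAP2 had 51.3 and 30.2 in the pools and 29.6 in the vector library. Neither passed, and CFTR was at 0 in all 3 libraries. Of 17 genes of translation termination, ribosome recycling and GCN2 control, the partners of ABCE1 and the ABCF proteins, 12 were higher in both pools, against 44.6% of all tested genes, 3 were lower in both, against 41.8%, and none rose or fell by limma. Their median log2 fold was 0.41, against 0.07 over all tested genes, and 0.03 against -0.31 after the shift. All 17 were above 0 in both pools, and of such tested genes 51.7% were higher and 32.5% lower in both. The median over such genes was 0.22, and -0.16 after the shift, which is the closer comparison for this list. PELO, which encodes Pelota, had 45.7 and 38.1 in the pools and 22.0 in the vector library.

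Mitochondrial heme and iron-sulphur genes, which work with ABCB6 and ABCB10, numbered 26, all tested and above 0 in both pools. None rose or fell by limma, against 1.16% and 9.35% of tested genes above 0 in both. In both pools 11 were higher and 8 lower, against 51.7% and 32.5%. By the size rule none was higher and 2 were lower, FDX1L and HSCB, against 2.94% and 15.7%. The list median log2 fold was 0.02, against 0.22. Of 23 tested genes of peroxisome assembly and beta-oxidation, 1 rose, PEX11A, a factor in peroxisome division, at 4.61 and 4.74 in the pools and 2.75 in the vector library (log2 fold 0.60, SE 0.05, limma adjusted p = 0.027). The fold of PEX11A was 0.22 after the shift, and it did not meet the size rule. All 23 were above 0 in both pools and none fell, where 1.16% of such genes rose and 9.35% fell. Of the 23, 10 were higher and 7 lower in both pools, against 51.7% and 32.5%. Their median log2 fold was 0.10, against 0.22.

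The 12 tested LXR receptors and sterol efflux partners were all above 0 in both pools. None rose and 1 fell, against 1.16% and 9.35% of such genes, with a list median of 0.21, against 0.22. The gene that fell was MYLIP, a ubiquitin ligase whose gene LXR induces, at 0.673 and 0.303 in the pools and 92.4 in the vector library in its single transcript (log2 fold -5.98, limma adjusted p = 0.0054). The pool values of MYLIP lay under the filter limit, so the vector value alone carried it past the filter and fixed its direction. Of 21 tested xenobiotic sensors and glutathione genes none rose and 3 fell, against 1.00% and 21.7% of all tested genes, and the list median was 0.32. By the size rule 3 were higher and 5 lower, against 2.53% and 27.3%. GCLC, the catalytic subunit of glutathione synthesis, had 13.0 and 13.6 in the pools and 435 in the vector library in its single transcript (log2 fold -4.93, limma adjusted p = 0.0053). ARNT, the partner of the aryl hydrocarbon receptor, had 28.2 and 26.8 in the pools and 138 in the vector library (log2 fold -2.28, limma adjusted p = 0.023), and 1 of its 3 transcripts met the size rule downward. NR1I2, the pregnane X receptor that induces ABCB1, was at 0 in both pools and at 8.21 in the vector library. GSTM1, a glutathione transferase, had the highest fold of that list, with 18.6 and 18.5 in the pools and 3.85 in the vector library (log2 fold 2.01, limma adjusted p = 0.056). After the shift the list medians were -0.36 for heme and iron-sulphur, -0.28 for peroxisomes, -0.17 for sterol efflux and -0.06 for xenobiotic and glutathione genes, each turned in sign. The median was then -0.31 over all tested genes and -0.16 over those above 0 in both pools.

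**Figure D4:**
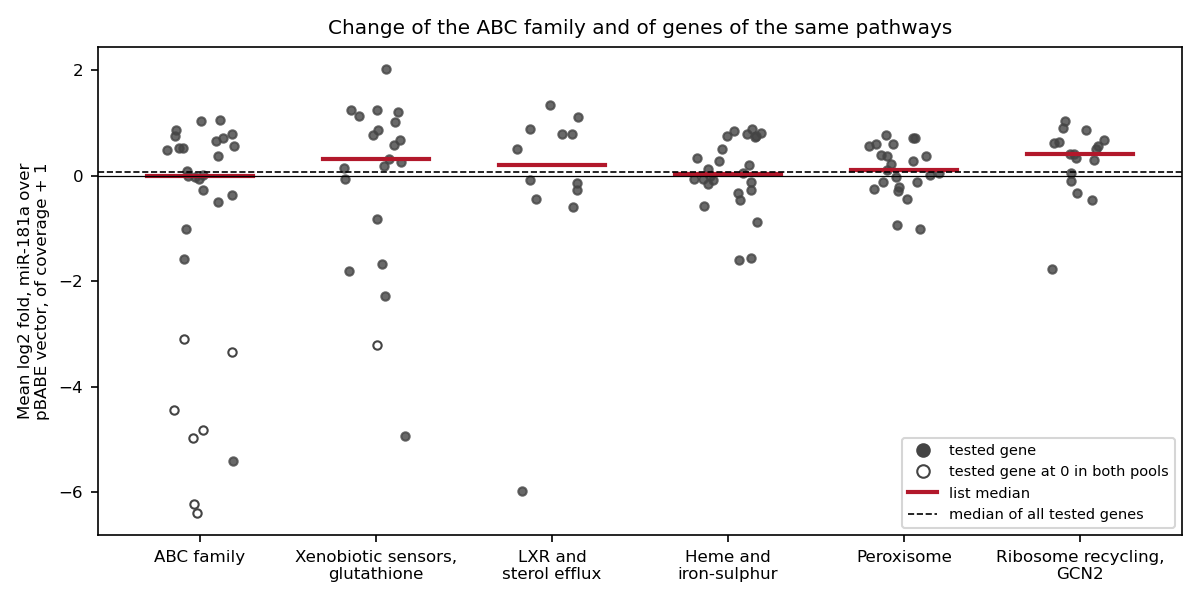
Mean log2 fold of coverage + 1 in the miR-181a pools over the vector library for each tested gene of the ABC family and of 5 lists from its pathways. Red bars are list medians, the dashed line is the median of all 12552 tested genes, 0.07, and open circles are genes at 0 in both pools, of which the family holds 7.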

How the data were processed

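Poly-A RNA of 3 libraries was sequenced as 100 nt reads and mapped to hg19, per the labels' protocols. The authors took the median of a density profile in 50 bp windows as the coverage signal of each transcript, per the labels' protocols, and the deposited values are linear. Log and quantile corrections are also named there, yet quantiles of the deposited columns are unequal, and the libraries were taken as not scaled to each other. Which aligner and which RefSeq release were used is not given in the sources used here. Rows with no vector value (308, none of them in the family) were left out and 54 symbols turned into dates were restored by accession. Each gene was represented by its row of highest mean, and the lowest 25% of genes by mean, among those with any coverage, were not tested. The others were compared on log2(coverage + 1) with limma 3.58.1 in R 4.3.3 (eBayes with a variance trend, 1 residual degree of freedom, adjusted p threshold of 0.05). The lone vector library was assumed to vary as the pools do. The same code was checked on simulated data, with changes planted only in genes well above 0 in the pools. The simulated vector library took its spread from the pools, so that check does not bear on this assumption. A size rule of 1 log2 unit in both pools was counted beside it. Members, roles and lists were chosen with earlier results of these data known. Alternatives covered the filter, pseudocount, scaling, choice of row, variance trend, size rule, seed length and each pool left out. Values are given for each member past the test or the size rule and for the 3 highest of each role. Counts cover all members, but the values of 2 members are not reported here. Seed matches and gene spans came from GENCODE annotation on GRCh37, the assembly of hg19, with a 3′ untranslated region for 97.9% of tested genes.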

Additional observations from a re-analysis of the deposited data

How the results depend on the processing

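No paired analysis was possible because the vector group has 1 library. The count of members lower by the size rule was 9 and became 16 with no filter, 5 with a filter at the median, 1 among genes above 0 in both pools and 5 with the row chosen by the pools, and the count that fell by limma, also 9, became 18, 5, 1 and 5 in those settings. The count higher by the size rule was 0 and became 1 with no filter, with a pseudocount of 0.1, with the row chosen by the pools and with the mean of transcripts, 6 with medians set equal, 9 after quantile normalization and 5 with a size rule of 0.5. No member rose, against 1 among genes above 0 in both pools, 1 with no variance trend, 2 after the shift and 13 each with medians set equal and after quantile normalization. Except for the size rule among genes above 0 in both pools, the matching shares over all genes were not counted in these alternatives. With 1 pool left out the count higher by the size rule was 0 to 3, the count lower 9 to 10, and of the 22 members 13 to 18 were higher and 4 to 9 lower. After the shift 10 of the 22 were lower in both pools, against 4. Their median fold of 0.43 was 0.26 with a pseudocount of 10, 0.85 with medians set equal, 0.0505 after the shift, 0.84 after quantile normalization and 0.32 to 0.46 with 1 pool left out. Members with a seed match numbered 4 with the 7-mer, 1 with the 8-mer and 11 with the 6-mer. Signs turned round with medians set equal in ABCA3 (0.0403), ABCA7 (0.40), ABCB8 (0.14) and ABCB9 (0.40), after quantile normalization in ABCA7 (0.33), ABCB9 (1.00) and ABCC6 (0.33), and after the shift in ABCA5 (-0.29) and ABCF1 (-0.37). ABCB9 also turned round with a pseudocount of 10 (0.0059), the row chosen by the pools (0.74) and the mean of transcripts (0.54). ABCF2 lost its call with no filter, a pseudocount of 10, the mean of transcripts and no variance trend (adjusted p 0.052 to 0.13). The cause of these changes was not tested beyond what each setting alters, and with no counts the depth sets a limit that cannot be stated.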
